A study of Mus musculus with 8 samples.

Results

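The lymphatic endothelial markers described here are the 7 genes Lyve1, Prox1, Pdpn, Ccl21a, Reln, Mmrn1 and Thy1, taken by symbol from a table of 22518 genes measured in mouse hearts. All 7 were in the table, each in a single row and above 0 in all 8 libraries, and 6 of them had a mean of at least 1 FPKM (fragments scaled to transcript length and library total) and entered the test across 11390 genes. RNA came from whole hearts of C57BL/6 mice at postnatal day 12, as 4 wild type littermate libraries and 4 libraries from mice whose endothelium lacks the oxygen sensors PHD2 and PHD3, prolyl hydroxylases. The promoter or Cre line that drives the deletion is not given in the sources used here, nor is the number of animals behind a library. Where samples are not separate animals, p-values measure only the spread between these samples. The comparison asks how transcripts of the lymphatic lining stood in the heart after loss of these enzymes from endothelium.

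Lymphatic vessels drain fluid and carry leukocytes from the tissue, and in the mouse heart they spread over the epicardial surface and into the muscle around birth and after it. Their endothelium arises when the homeobox factor PROX1 is switched on in venous endothelial cells, and it grows in response to VEGF-C through the receptor VEGFR3. PHD2 and PHD3 hydroxylate the alpha subunits of the hypoxia-inducible factors in the presence of oxygen, which leads to their degradation. Several of the markers are also made by other cells of a heart: PROX1 is present in cardiomyocytes, LYVE1 in resident macrophages, podoplanin in epicardium, THY1 in fibroblasts and MMRN1 in platelets.

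Depth is unknown, because the quantile normalisation by the authors left all libraries with almost the same distribution. The targeted genes Egln1 (PHD2) and Egln3 (PHD3) were not lower in the knockout hearts, at 52.9 ± 5.40 and 57.4 ± 4.73 FPKM for Egln1 and at 28.2 ± 8.83 and 40.8 ± 8.58 FPKM for Egln3 in wild type and knockout hearts (means ± SD, n = 4). These whole heart values pool endothelium with all other cells, so the genotype cannot be checked from them. Why Egln1 and Egln3 were not lower was not tested. The summed level of 8 airway and lung genes reached 1327 FPKM in wild type replicate 4, while no other library exceeded 0.501 FPKM. Of these genes 4 were tested and 0 passed the limma test (0 at an unadjusted p under 0.05). They reached the filter only through wild type replicate 4. A test between groups can hardly call genes that are high in a single library, so this result has no bearing on airway tissue in that library. Knockout replicate 4 has a library number apart from the run of the other 7, and results that turn on either library are given without it.

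Of the 6 markers tested, 1 (Ccl21a) fell and 0 rose, while of all tested genes 12.2% were called, 6.15% raised and 6.01% lowered. A call is a Benjamini-Hochberg adjusted p under 0.05 in limma on log2(FPKM + 1), a scale that understates the change of low genes. At an unadjusted p under 0.05 the count was also 1, with 0 raised. Ccl21a encodes the chemokine CCL21, which draws dendritic cells and T cells carrying the receptor CCR7 into lymphatic vessels. It was measured at 9.11, 8.36, 5.64 and 11.8 FPKM for wild type replicates 1 to 4, and knockout replicates 1 to 4 gave 5.19, 0.508, 3.57 and 0.502 FPKM. Knockout replicates 2 and 4 were far below the other libraries, knockout replicate 1 lay just under the lowest wild type value, and the groups did not overlap. The mean was 3.58-fold lower in the knockout (8.73 ± 2.54 against 2.44 ± 2.33 FPKM, SD, n = 4). The difference of log2(FPKM + 1), knockout minus wild type in this and all later values, was -1.74 ± 0.48 (SE; limma adjusted p = 0.0484; exact two-sided permutation p = 0.0286, the smallest that the 70 splits of 8 samples can give). In whole hearts, fewer lymphatic cells and less Ccl21a RNA per cell cannot be told apart.

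**Figure D1:**
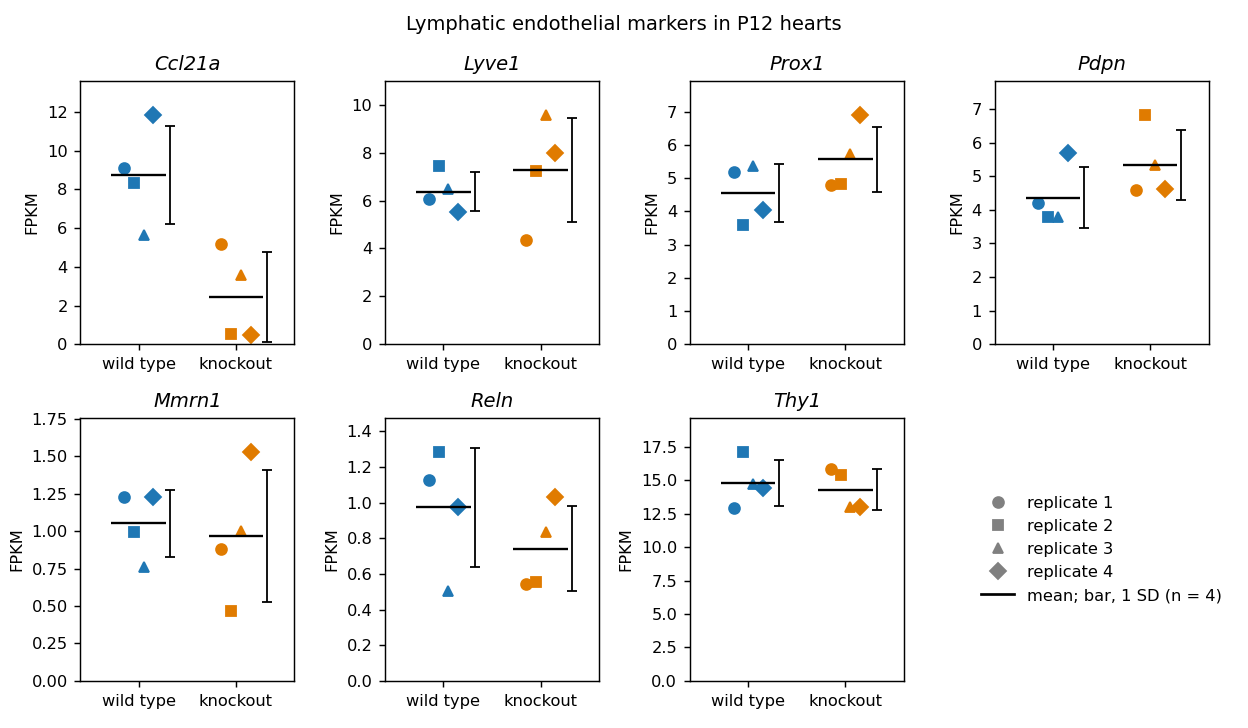
FPKM (linear axis from 0) of each of the 7 markers in wild type (blue) and knockout (orange) hearts; each symbol is 1 library, its shape gives the replicate number, the line is the mean and the bar 1 SD (n = 4). Ccl21a is the gene whose groups do not overlap, from 5.64 to 11.8 FPKM in wild type and from 0.502 to 5.19 FPKM in knockout hearts.

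This call stood close to the threshold. It was lost when any library other than knockout replicate 1 was left out, with a limma adjusted p of 0.0999, 0.119, 0.0706 and 0.0957 without wild type replicates 1 to 4 and of 0.102, 0.0537 and 0.0976 without knockout replicates 2 to 4. Without knockout replicate 1 the adjusted p was 0.0174 and the mean was 5.72-fold lower. Without both replicates 4 the log2 difference was -1.29 (adjusted p = 0.156). The direction was down in all 17 alternatives, and the adjusted p ran from 0.0174 to 0.156.

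**Figure D2:**
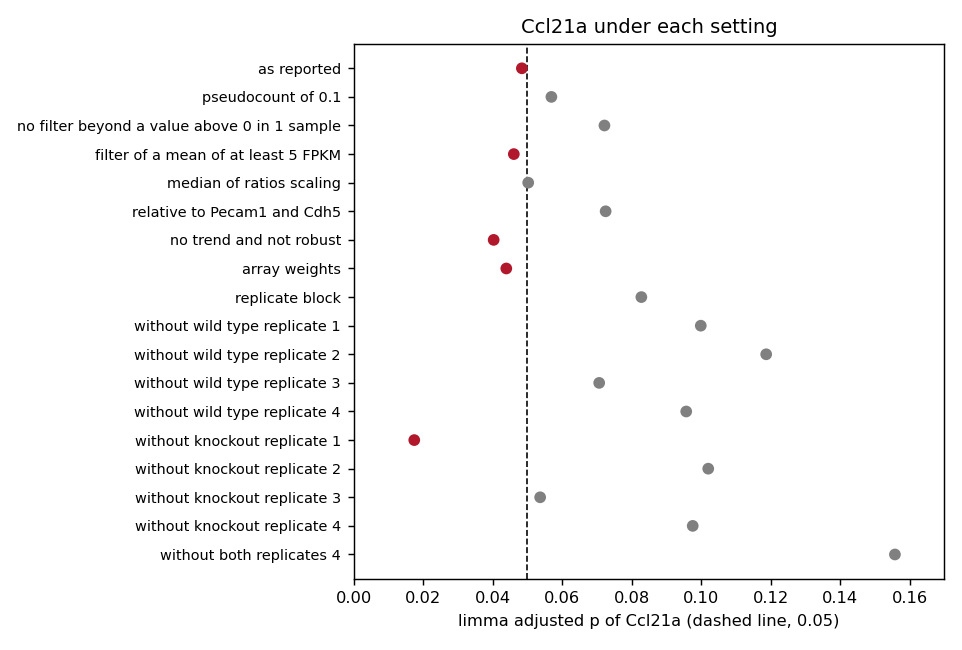
Limma adjusted p of Ccl21a (horizontal axis) as reported and under each of 17 alternatives (rows); red points are under 0.05 and grey points are not, and the dashed line is 0.05. As reported the adjusted p is 0.0484, and it reaches 0.156 without both replicates 4.

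The value of Ccl21a (chromosome 4, 42772860 to 42773993 in mm10, minus strand) cannot be taken as that of a single locus, because the same chromosome carries near-identical copies. The table lists Ccl21b (41903610 to 41904743, named Gm21541 in GENCODE M21), Ccl21c (42255767 to 42256432, named Ccl21b in GENCODE M21), Gm13304 (42114817 to 42115917) and Gm10591 (42612195 to 42612860), all on the plus strand. The coding sequence of each is 402 bases long and differs from that of Ccl21a at 2 positions, T84A and C194T, counted from the A of the start codon with the Ccl21a base first (99.5% identity). Bases 64 to 214 of the coding sequences, from the GENCODE M21 transcripts, are shown to let the shared stretch be seen, with the differing positions in capitals.
Ccl21a: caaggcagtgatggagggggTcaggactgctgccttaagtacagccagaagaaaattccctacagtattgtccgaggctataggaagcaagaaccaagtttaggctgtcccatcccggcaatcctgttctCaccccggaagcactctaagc
Ccl21b: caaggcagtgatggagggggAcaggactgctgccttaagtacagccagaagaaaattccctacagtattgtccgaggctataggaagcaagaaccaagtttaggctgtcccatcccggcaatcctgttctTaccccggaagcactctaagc
Ccl21c, Gm13304 and Gm10591 have the same bases as Ccl21b in this stretch. A read can tell Ccl21a from the others within the coding part only where it covers either of these positions.

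The 5 copies followed each other through the libraries. Ccl21b was at 3.54, 3.17, 2.11 and 6.13 FPKM across wild type replicates 1 to 4, with 1.80, 0.479, 1.46 and 0.178 FPKM across the knockout replicates, and its ratio to Ccl21a was between 0.347 and 0.518 in all libraries except knockout replicate 2, where it was 0.942. In all 5 copies wild type replicate 4 was the highest library and knockout replicate 4 the lowest, and the groups did not overlap. Ccl21b fell 3.82-fold (limma adjusted p = 0.0340) and Ccl21c 3.37-fold (adjusted p = 0.0368). Gm13304 and Gm10591, named after their values were seen, fell 3.77-fold and 3.54-fold (limma adjusted p = 0.0349 and 0.0258). Reads that fit several copies may have been divided among them by the quantification, so these are not 5 independent results.

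Summed over the copies, which was chosen after seeing the data, the level was 19.4, 17.7, 12.1 and 29.8 FPKM across wild type replicates 1 to 4, and 10.6, 2.03, 7.91 and 1.20 FPKM across the knockout replicates. The sum was 3.62-fold lower in the knockout hearts (19.7 ± 7.41 against 5.44 ± 4.58 FPKM, SD, n = 4; exact two-sided permutation p = 0.0286). The call of Ccl21b was lost when wild type replicate 1, 2 or 4 or else knockout replicate 2 or 4 was left out (limma adjusted p of 0.0531 to 0.0887), and in 8 of 16 alternatives in all. That of Ccl21c was lost when wild type replicate 1, 2 or 4 or else knockout replicate 2, 3 or 4 was left out (adjusted p of 0.0573 to 0.0956), and in 9 of 16 alternatives in all (up to 0.102). In both genes the knockout mean was under 1 FPKM, so they entered the test through the higher wild type values. The same holds for Gm13304 and Gm10591, with knockout means of 0.888 and 0.548 FPKM. The calls of Gm13304 and Gm10591 were not followed through the alternatives.

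**Figure D3:**
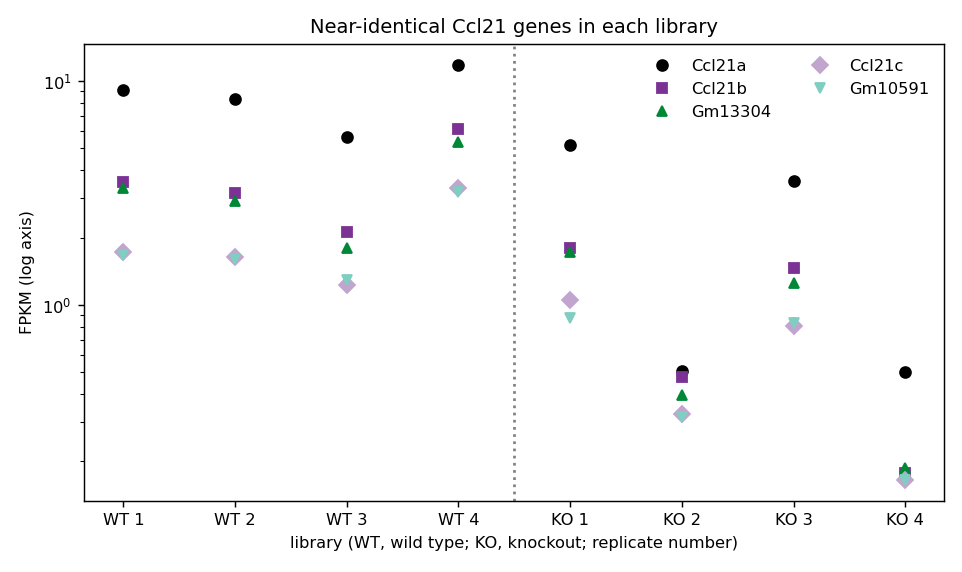
FPKM (log axis) of the 5 near-identical Ccl21 genes in each of the 8 libraries, in columns for wild type (WT) and knockout (KO) replicates 1 to 4. The symbols of a library shift up and down together, with Ccl21a between 5.64 and 11.8 FPKM in wild type and at 0.508 and 0.502 FPKM in knockout replicates 2 and 4.

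All 12 measured lymphocyte and thymus genes had means under 1 FPKM, and Foxn1 was listed at 0 throughout. Their summed level was 2.56, 1.89, 3.06 and 3.88 FPKM across wild type replicates 1 to 4. Across knockout replicates 1 to 4 the sum was 2.93, 1.34, 2.16 and 0.848 FPKM. As in Ccl21a, wild type replicate 4 was the highest library and knockout replicate 4 the lowest, but the sums of the groups overlapped. Ccl19, the other ligand of CCR7, was measured at 2.56, 2.34, 1.87 and 3.56 FPKM for wild type replicates 1 to 4, and knockout replicates 1 to 4 gave 1.58, 3.49, 2.37 and 0.984 FPKM, with overlapping groups (limma adjusted p = 0.516). The part of lymphoid tissue in the fall of Ccl21a was not tested. The airway genes, at 1327 FPKM in wild type replicate 4, were in the library with the highest Ccl21a, and without it the mean of Ccl21a was 3.15-fold lower in the knockout hearts.

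The tested genes nearest to Ccl21a in profile were C1qtnf9, Vtn and Btnl9. Likeness was the root mean square difference over the 8 libraries after each gene's log2(FPKM + 1) was centred on its own mean, and it was 0.35, 0.38 and 0.38 for these genes against a median of 1.12 over 11389 genes. C1qtnf9, a secreted relative of adiponectin, was at 27.5, 32.1, 27.0 and 33.5 FPKM across wild type replicates 1 to 4, with 12.97, 4.77, 8.42 and 4.24 FPKM across the knockout replicates. Vtn, which encodes the adhesive glycoprotein vitronectin, was at 20.5 ± 1.98 FPKM in the wild type and 5.02 ± 3.61 FPKM in the knockout, and Btnl9, a butyrophilin-like gene, at 19.0 ± 1.13 and 5.93 ± 2.57 FPKM. As in Ccl21a, knockout replicates 2 and 4 were the lowest and knockout replicate 1 the highest of the knockout libraries in all 3. The genes were chosen by likeness over these same libraries, so this shared pattern largely follows from the choice. The copies Ccl21b and Gm13304 were also near the top of the ranking by likeness, at 0.40 and 0.42.

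**Figure D4:**
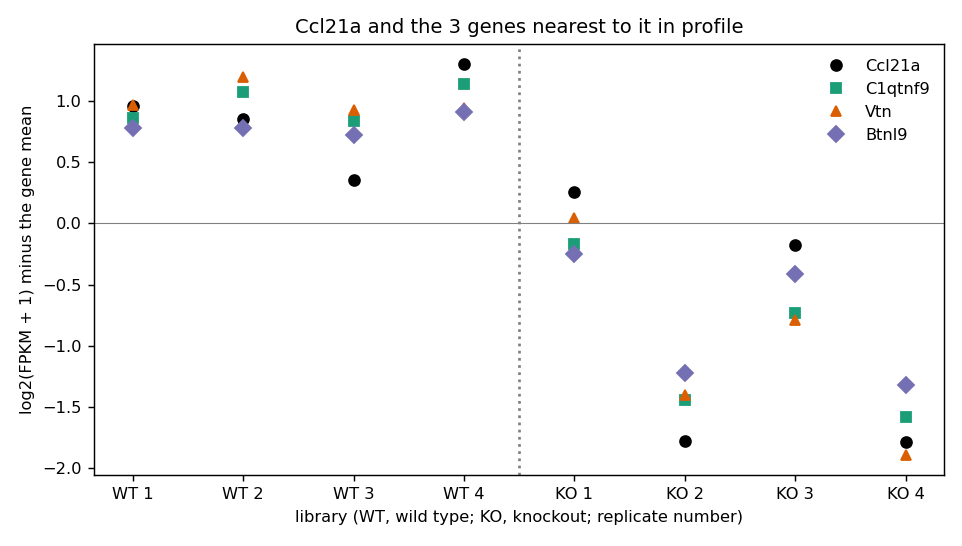
Log2(FPKM + 1) minus each gene's mean over the 8 libraries, for Ccl21a and the 3 tested genes with the smallest root mean square difference to it, in wild type (WT) and knockout (KO) replicates 1 to 4. In every gene knockout replicates 2 and 4 are the lowest points, and C1qtnf9 goes from 30.04 FPKM on average in wild type to 7.598 FPKM in knockout hearts.

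In 1 of the 7 markers the groups did not overlap, against 20.7% of all tested genes, and in 10.4% the knockout was the lower group. The median difference of log2(FPKM + 1) was 0.042 over the 6 markers and -0.0095 over all tested genes. In wild type hearts the levels per transcript length ran from Thy1 (14.8 FPKM) to Ccl21a, Lyve1 (6.38 FPKM), Prox1 (4.54 FPKM), Pdpn (4.35 FPKM), Mmrn1 (1.05 FPKM) and Reln (0.973 FPKM). The ranges of Ccl21a and Lyve1, of Prox1 and Pdpn, and of Mmrn1 and Reln overlapped there. In knockout hearts Ccl21a stood below Pdpn, and only Thy1 was separate from its neighbour in this order.

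Prox1, the regulator that sets and keeps lymphatic identity (chromosome 1, 190118035 to 190170714), did not pass the test. It was at 5.18, 3.58, 5.38 and 4.04 FPKM over replicates 1 to 4 of the wild type, against 4.81, 4.84, 5.73 and 6.89 FPKM over those of the knockout. The groups overlapped, with the highest value in knockout replicate 4. The log2 difference was 0.25 (95% interval -0.065 to 0.56; limma adjusted p = 0.267). The antisense gene Prox1os shares 133 exon bases with Prox1, 1.59% of its exon bases, and the strandedness of the libraries is not given in the sources used here. Cardiomyocyte genes, of which 1 of 10 rose (Mybpc3) and 1 fell (Tnni3), summed to 29525 to 35409 FPKM in the wild type and 27204 to 35452 FPKM in the knockout.

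Lyve1 encodes a receptor for the matrix polysaccharide hyaluronan on lymphatic endothelium, where it also serves the entry of leukocytes (chromosome 7, 110850607 to 110863239). It was measured at 6.06, 7.46, 6.48 and 5.51 FPKM for wild type replicates 1 to 4, and knockout replicates 1 to 4 gave 4.34, 7.22, 9.56 and 7.97 FPKM. Both the lowest and the highest value were knockout libraries, so the groups overlapped (log2 difference 0.13, 95% interval -0.29 to 0.55; limma adjusted p = 0.683). Among resident macrophage genes 0 of 11 tested passed the limma test in either direction (2 at an unadjusted p under 0.05). Their summed level was 122 to 238 FPKM in the wild type and 121 to 147 FPKM in the knockout, the highest in wild type replicate 4, where Cbr2, which airway cells also express, was at 129 FPKM. Without this library the wild type sums were 122 to 138 FPKM.

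Pdpn encodes podoplanin, a membrane glycoprotein that binds the platelet receptor CLEC-2 and keeps blood and lymphatic vessels apart (chromosome 4, 143267431 to 143299564). It was at 4.19, 3.77, 3.77 and 5.68 FPKM across wild type replicates 1 to 4, with 4.58, 6.81, 5.34 and 4.63 FPKM across the knockout replicates. Wild type replicate 4, the library with airway genes, was the only wild type value within the knockout range. The log2 difference was 0.24 (95% interval -0.075 to 0.56; limma adjusted p = 0.283), and 0.36 without wild type replicate 4 (adjusted p = 0.131). With array weights, which count variable libraries less, Pdpn was called up (adjusted p = 0.0494). Epicardial and mesothelial genes, which mark another source of podoplanin, summed to 64.7 to 116 FPKM in the wild type and 96.5 to 120 FPKM in the knockout, where the highest wild type sum was that of replicate 4. Without this library the wild type sums were 64.7 to 76.9 FPKM, all below the knockout sums. This gap lay largely in Krt19 and Wt1. Krt19 reached 21.7 to 31.7 FPKM in the knockout, against at most 4.19 FPKM in the wild type without replicate 4. Wt1 reached 12.6 to 14.7 FPKM in the knockout, against at most 6.30 FPKM in the wild type. The median log2 difference over the list was 0.071, so the sums do not show a rise of the list as a whole. As reported, 2 of 10 genes were raised (Wt1 and Krt19) and 0 lowered (1 at an unadjusted p under 0.05). Their part in the values of Pdpn was not tested.

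Thy1, a GPI-anchored glycoprotein of the immunoglobulin superfamily (chromosome 9, 44043384 to 44048579), had the highest level of the 7 markers. It was at 12.9, 17.1, 14.7 and 14.4 FPKM over replicates 1 to 4 of the wild type, against 15.8, 15.3, 13.03 and 12.97 FPKM over those of the knockout. Both the lowest and the highest value were wild type libraries (log2 difference -0.045, 95% interval -0.28 to 0.19; limma adjusted p = 0.806). Of 10 fibroblast genes 0 rose (0 at an unadjusted p under 0.05) and 3 fell, namely Dcn, Dpt and Lum, and the list summed to 1392 to 1666 FPKM in the wild type and 845 to 1400.2 FPKM in the knockout. The lowest sum was that of knockout replicate 4, and knockout replicates 1 to 3 gave 1317, 1400.2 and 1248 FPKM. The part of fibroblasts in the values of Thy1, and of the other cell types in those of Prox1, Lyve1, Mmrn1 and Reln, was not tested.

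Mmrn1 and Reln encode secreted proteins of lymphatic endothelium and were the lowest of the markers. Mmrn1, the gene of the factor V binding protein multimerin-1 (chromosome 6, 60924976 to 60989378), was measured at 1.23, 0.991, 0.762 and 1.23 FPKM for wild type replicates 1 to 4, and knockout replicates 1 to 4 gave 0.881, 0.464, 0.999 and 1.53 FPKM. The knockout values spread on both sides of the wild type values (log2 difference -0.081, 95% interval -0.44 to 0.28; limma adjusted p = 0.776). Knockout replicate 4, with the lowest Ccl21a, had the highest Mmrn1. Of 2 platelet genes tested, 0 passed the limma test (1 at an unadjusted p under 0.05, Itga2b), and the 9 measured genes summed to 19.5 to 28.7 FPKM in the wild type and 14.0 to 22.5 FPKM in the knockout. The lowest sum was that of knockout replicate 4, and knockout replicates 1 to 3 gave 22.5, 20.9 and 21.7 FPKM. Of the 9 genes 7 had means under 1 FPKM, and most of the sum was Pf4 (22.5 ± 4.03 and 17.4 ± 4.42 FPKM, limma adjusted p = 0.235).

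Reln, the gene of the matrix protein reelin, which collecting lymphatic vessels secrete to their smooth muscle (chromosome 5, 21884454 to 22344702), had a mean under 1 FPKM and was not in the test across genes. It was at 1.13, 1.28, 0.506 and 0.976 FPKM across wild type replicates 1 to 4, with 0.545, 0.553, 0.836 and 1.03 FPKM across the knockout replicates. The lowest value was wild type replicate 3, and the groups overlapped (exact two-sided permutation p = 0.314). With no filter on low genes its log2 difference was -0.17 (limma adjusted p = 0.545). Stmn2, a gene of neurons, which are another possible source of Reln and Thy1, rose in the knockout hearts. Gm10475, an antisense gene, shares 246 exon bases with Reln, 1.04% of its exon bases.

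The genes that act on lymphatic endothelium were read from 5 lists, of which 50 genes in all were tested, with 9 raised and 9 lowered. Their median log2 difference was -0.036, beside -0.0095 over all tested genes, of which 6.15% were raised and 6.01% lowered. The lowered genes include the Ccl21a copies Ccl21b and Ccl21c, with knockout means of 0.979 and 0.587 FPKM. The raised genes include Lrp8, with a wild type mean of 0.371 FPKM. Each of these reached the filter through the group where it was higher, so the counts are a description. Among ligands and their processing, 2 of 6 tested genes rose, 1 fell and 3 were not called, with a median log2 difference of 0.16. Vegfc, the main growth factor for lymphatic vessels (chromosome 8, 54077606 to 54187096), was at 4.397, 5.02, 4.60 and 5.05 FPKM over replicates 1 to 4 of the wild type, against 3.70, 3.39, 3.75 and 3.503 FPKM over those of the knockout. All knockout values lay below all wild type values, a 1.33-fold fall (log2 difference -0.33 ± 0.08, SE; limma adjusted p = 0.0251). This call was lost when wild type replicate 2, 3 or 4 or else knockout replicate 2 was left out (adjusted p of 0.0552 to 0.0856). It was also lost relative to Pecam1 and Cdh5 (0.0634), with the replicate block (0.0952) and without both replicates 4 (0.0725). Figf, which encodes VEGF-D, was at 1.146 ± 0.174 and 1.06 ± 0.268 FPKM (limma adjusted p = 0.743), and Ccbe1, a cofactor of VEGF-C cleavage, was under the filter at 0.506 ± 0.118 and 0.453 ± 0.106 FPKM.

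The ligands that rose were Adm and Angpt2. Adm, the gene of adrenomedullin, which acts on both blood and lymphatic endothelium, rose 2.86-fold (limma adjusted p = 0.00628), and Angpt2, a ligand of the TIE2 receptor needed for lymphatic remodelling, 1.88-fold (adjusted p = 0.0236). The call of Angpt2 was lost when wild type replicate 1 or 2 or else knockout replicate 2 was left out (adjusted p of 0.0564 to 0.0789), or both replicates 4 (0.0559).

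Among receptors and junctional signalling genes, 1 of 15 tested rose, 5 fell and 9 were not called, with a median log2 difference of -0.20. Flt4, which encodes the VEGF-C receptor VEGFR3, was measured at 3.36, 4.17, 3.499 and 3.91 FPKM for wild type replicates 1 to 4, and knockout replicates 1 to 4 gave 6.84, 5.35, 4.96 and 3.70 FPKM. Only knockout replicate 4 lay within the wild type range, and the gene did not pass the test (log2 difference 0.37 ± 0.14, SE; limma adjusted p = 0.118), while without this library it did (0.50, adjusted p = 0.0256). Nrp2, its co-receptor, was at 15.8 ± 0.430 FPKM in the wild type and 12.1 ± 3.75 FPKM in the knockout (limma adjusted p = 0.178). Calcrl, the adrenomedullin receptor, rose 1.84-fold (limma adjusted p = 0.00515), and its partner Ramp2 fell 1.31-fold (adjusted p = 0.0195).

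Tie1 fell from 38.5 ± 2.33 to 24.8 ± 1.74 FPKM (limma adjusted p = 0.00202), and Tek, which encodes TIE2, from 22.4 ± 1.52 to 14.8 ± 2.01 FPKM (adjusted p = 0.00779). Ephb4 also fell (limma adjusted p = 0.0341), as did its ligand Efnb2 (0.0499), a pair that shapes lymphatic valves and was named after the values were seen. The call of Ephb4 was lost in 9 of 17 alternatives (adjusted p up to 0.106), among them all omissions of a library but knockout replicates 3 and 4, and that of Efnb2 in 13 of 17 (up to 0.138), among them all but knockout replicate 1. The call of Ramp2 was lost when wild type replicate 2 or else knockout replicate 3 was left out (up to 0.0692), relative to Pecam1 and Cdh5 (0.0679) and with the replicate block (0.0524).

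In the list of transcription factors, 1 of 9 tested genes rose, 1 fell and 7 were not called, with a median log2 difference of -0.098. Sox18, which switches on Prox1 in the embryo, fell from 34.2 ± 3.06 to 20.9 ± 2.78 FPKM (log2 difference -0.69 ± 0.11, SE; limma adjusted p = 0.00497), while Prox1 did not pass the test. Nr2f2, the venous factor that acts with PROX1, was at 4.24 ± 0.341 and 4.05 ± 0.5001 FPKM (limma adjusted p = 0.731). Hhex, a homeobox factor of developing vessels, rose from 2.77 ± 0.548 to 4.24 ± 0.647 FPKM (limma adjusted p = 0.0402), a call lost in 10 of 16 alternatives (adjusted p up to 0.0975), among them all omissions of a library except wild type replicate 2.

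Among the binding partners of the marker proteins, 3 of 12 tested genes rose, 2 fell and 7 were not called, with a median log2 difference of 0.0046. The 2 that fell were the Ccl21 copies Ccl21b and Ccl21c. The reelin receptor gene Vldlr rose from 29.3 ± 6.32 to 48.9 ± 8.64 FPKM (limma adjusted p = 0.0218). Lrp8, the gene of the other reelin receptor, was at 0.371 ± 0.173 FPKM in the wild type and 2.62 ± 2.04 FPKM in the knockout (limma adjusted p = 0.0249). It reached the mean of 1 FPKM needed for the test only through the knockout group, so its place among the 3 raised genes is given as a description. Lrp8 was at 5.66 FPKM in knockout replicate 2 and between 1.37 and 2.002 FPKM in the other knockout hearts, and the fold between the means was 4.35 without this library and 7.08 with it. The call of Vldlr was lost when wild type replicate 2 or 4 or else knockout replicate 3 was left out (adjusted p up to 0.0609), or both replicates 4 (0.0758). That of Lrp8 was lost in 7 of 16 alternatives (up to 0.0803), among them the omission of wild type replicate 2, 3 or 4. Itgb3, a subunit of the integrin that binds THY1, rose from 1.20 ± 0.145 to 5.86 ± 2.39 FPKM (log2 difference 1.58 ± 0.19, SE; limma adjusted p = 0.00171).

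Ccr7 and Clec1b, the genes of a CCL21 receptor and of a podoplanin receptor, were under the filter. Ccr7 was at 0.194 ± 0.0460 FPKM in the wild type and 0.149 ± 0.0911 FPKM in the knockout (exact two-sided permutation p = 0.400). Clec1b, which encodes CLEC-2, was at 0.243, 0.159, 0.535 and 0.0875 FPKM across wild type replicates 1 to 4, with 0.541, 0.639, 0.566 and 0.958 FPKM across the knockout replicates. The lowest knockout value lay just above the highest wild type value (exact permutation test, two-sided p = 0.0286; adjusted p in limma with no filter = 0.0782).

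Among further genes reported in lymphatic endothelium, 2 of 8 tested rose, 0 fell (0 at an unadjusted p under 0.05) and 6 did not pass the test, with a median log2 difference of 0.26. Ccbp2, now called Ackr2, encodes a scavenging receptor of lymphatic endothelium that removes inflammatory chemokines. It was at 1.46, 2.22, 1.95 and 1.39 FPKM over replicates 1 to 4 of the wild type, against 10.6, 10.1, 7.32 and 10.4 FPKM over those of the knockout, a 5.47-fold rise (log2 difference 1.94 ± 0.14, SE; limma adjusted p = 0.000136). Nts, the neurotensin precursor, was measured at 5.82, 12.5, 10.1 and 8.38 FPKM for wild type replicates 1 to 4, and knockout replicates 1 to 4 gave 80.4, 75.6, 52.9 and 83.5 FPKM (limma adjusted p = 0.000190). For both genes every knockout library lay far above every wild type library.

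**Figure D5:**
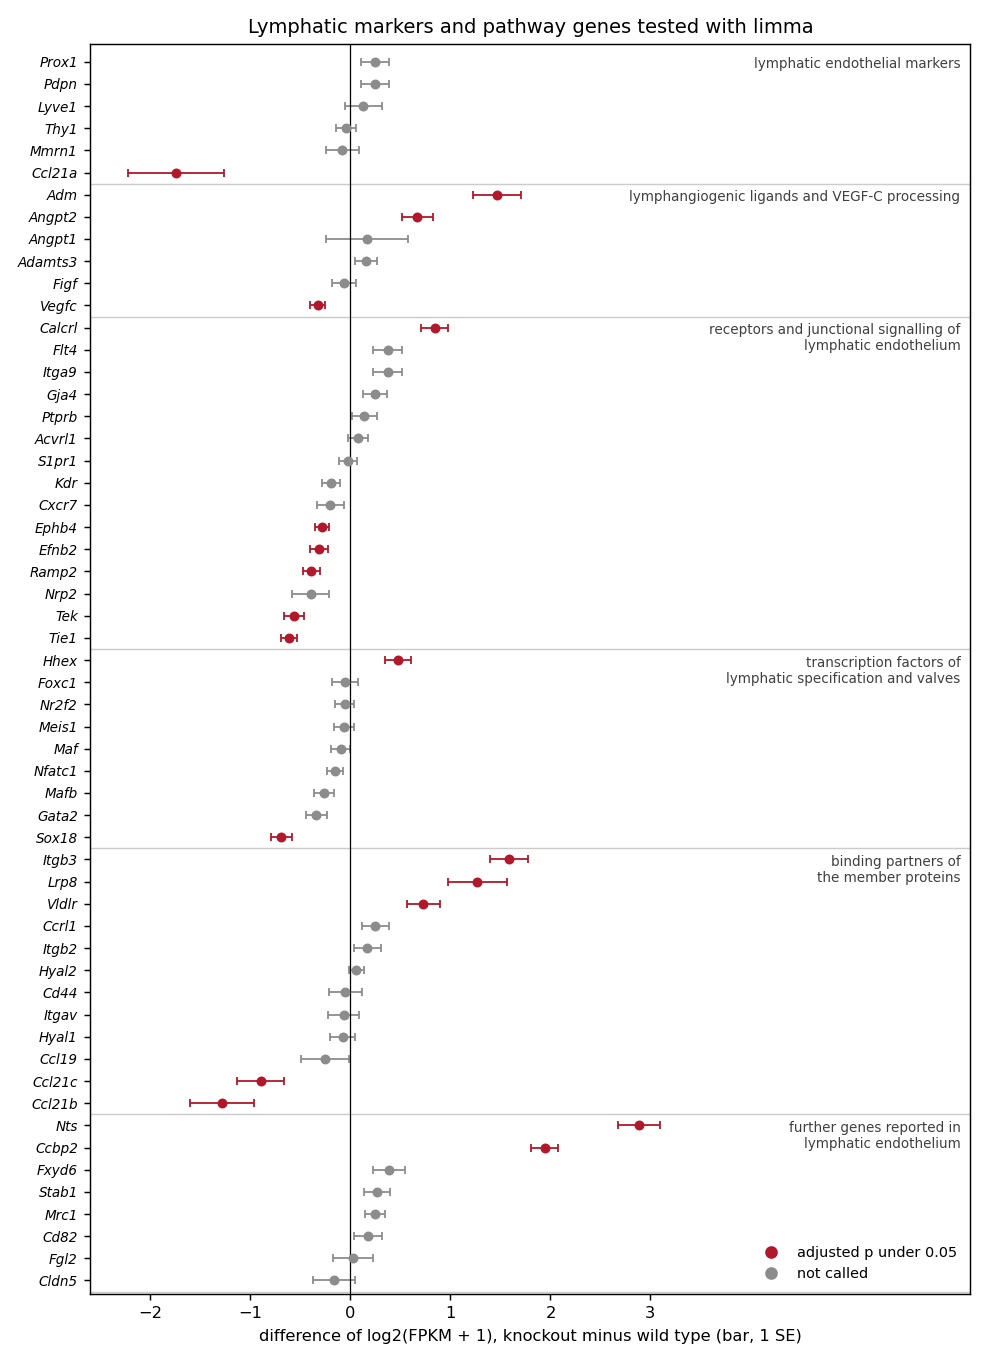
Difference of log2(FPKM + 1), knockout minus wild type (horizontal axis, bar 1 SE, n = 4 per group), for the 6 tested markers and the 50 tested genes of the 5 pathway lists; red genes had a limma adjusted p under 0.05. Ccl21a (-1.74) and its copies are the lowest genes, Nts (2.88) and Ccbp2 (1.94) the highest.

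Endothelial genes of all vessels, of which 2 of 12 rose (Flt1 and Eng), 2 fell (Tie1 and Tek, which are also in the receptor list) and 8 did not pass the test, summed to 686 to 782 FPKM in the wild type and 680 to 740 FPKM in the knockout. Pecam1 was at 94.5 ± 5.001 and 111 ± 6.94 FPKM (limma adjusted p = 0.0665) and Cdh5 at 94.9 ± 1.597 and 80.7 ± 9.40 FPKM (adjusted p = 0.102). With every gene taken relative to the mean log2 level of these 2 genes in its library, the log2 difference of Ccl21a was -1.74 and its limma adjusted p 0.0725. The log2 differences of Pecam1 and Cdh5 were 0.24 and -0.24 and cancel in their mean. This scaling could therefore hardly move the log2 difference of any gene, and it is no check on the amount of endothelium.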

How the data were processed

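Whole heart RNA was isolated with an RNeasy kit and made into 8 libraries with an Illumina TruSeq kit, per the labels' protocols. The submitters' processing notes name TopHat2, Cufflinks and the mm10 build, with versions not given in the sources used here. The authors deposited 1 table of coding genes whose values, with no unit named, were read as FPKM. Its name says quantile normalised, and the values fit that: the 39 highest ranks are identical in all libraries, and over 11390 ranks the libraries spread by at most 3.87% of the mean. Such values hide differences in depth and in total RNA, and 4644 genes are listed at 0 throughout. No per-sample columns of other samples are in the table.

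The test took genes averaging 1 FPKM or more, on log2(FPKM + 1) with limma 3.58.1 in R 4.3.3 (trend and robust empirical Bayes, 4 against 4, no covariate), adjusted over all 11390 genes with a threshold of 0.05. Intervals are at the 95% level. Single genes were also compared with an exact two-sided permutation test over samples (Python 3.11.15, numpy 2.4.6, pandas 2.3.3). The functions were tested on simulated data. Members, gene lists and tests were chosen with earlier results of these data known. Genes named are the 7 markers, fixed partners (Vegfc, Figf, Ccbe1, Flt4, Nrp2, Nr2f2, Sox18, Ccr7, Ccl19, Ccl21b, Ccl21c, Clec1b, Pecam1, Cdh5, Egln1, Egln3), up to 4 called genes with the smallest p in each pathway list, and the 3 tested genes nearest in profile to a called marker. Outside this rule, and after their values were seen, the text names Gm13304, Gm10591, Ephb4, Efnb2 and Itgam, and single genes of the cell type lists beside their counts or sums (Foxn1, Cbr2, Mybpc3, Tnni3, Wt1, Krt19, Dcn, Dpt, Lum, Itga2b, Pf4, Stmn2, Flt1, Eng). Coordinates are from GENCODE M21, and promoter windows from RefSeq (GRCm38.p6). Alternatives were another pseudocount (0.1), no filter or at least 5 FPKM, median of ratios scaling, levels relative to Pecam1 and Cdh5, plain empirical Bayes, array weights, a replicate block, each library left out, and both replicates 4 left out. Piezo1, Foxc2, Ptcra and Tubb3 were listed but are not analysed here. The result of 1 gene of the lists is not reported here.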

Additional observations from a re-analysis of the deposited data

Results flagged for a closer look

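Of 74 groups of 4 libraries looked at, 3 held a library far from the others, where chance alone gives about 1 in 20. Tie1 was at 35.05 FPKM in wild type replicate 3, below the other wild type libraries. Lrp8 was at 5.66 FPKM in knockout replicate 2, above the other knockout libraries. Ccbp2 was at 7.32 FPKM in knockout replicate 3, below the other knockout libraries and above all wild type libraries. None of the 7 markers had such a library.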

How the results depend on the processing

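The call of Ccl21a was lost in 13 of 17 alternatives, with its direction kept in all. Its log2 difference and limma adjusted p were -2.39 and 0.0569 with a pseudocount of 0.1, -1.74 and 0.0722 with no filter, -1.74 and 0.0502 with median of ratios scaling, and -1.74 and 0.0725 relative to Pecam1 and Cdh5. Without both replicates 4 they were -1.29 and 0.156, and with each library left out they ran from -2.12 to -1.44 and from 0.0174 to 0.119. In these 5 settings apart from the single omissions, and with the replicate block, 0 markers fell, and with single omissions 0 to 1 fell. Array weights raised 1 marker (Pdpn), and single omissions 0. The exact permutation p of Ccl21a was 0.0286 to 0.0857 with a library left out and 0.1 without both replicates 4, which was added after seeing the data and is the smallest that 3 samples against 3 can give.

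The replicate numbers are shared between groups, but nothing in the labels ties them, and the correlations of same-numbered deviations were -0.23, 0.0093, 0.10 and -0.097. With the replicate block Ccl21a was at -1.74 with a limma adjusted p of 0.0828, and 613 genes were called in place of 1385. Single omissions gave 575 to 1820 called genes. In the pathway lists 5 genes rose with a filter of at least 5 FPKM and 6 to 10 with a library left out. There 5 fell relative to Pecam1 and Cdh5, 3 with the replicate block, 4 without both replicates 4 and 3 to 8 with a library left out.

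Differences that did not pass the test changed sign as follows: Lyve1 to -0.0024 without knockout replicate 3, Mmrn1 to 0.053 without knockout replicate 2, Thy1 to 0.022 without wild type replicate 2, Figf to 0.0088 and Nr2f2 to 0.016 without knockout replicate 1, and Ccl19 to 0.070 with array weights and 0.065 without both replicates 4. With a library left out, the exact permutation p ran from 0.0857 to 1 for Lyve1, 0.171 to 0.429 for Prox1, 0.0857 to 0.4 for Pdpn, 0.0857 to 0.629 for Reln, 0.229 to 0.886 for Mmrn1 and 0.343 to 0.971 for Thy1. Over single omissions the log2 difference ran from -0.0024 to 0.33 for Lyve1, -0.21 to 0.053 for Mmrn1, -0.10 to 0.022 for Thy1, -0.14 to 0.0088 for Figf and -0.094 to 0.016 for Nr2f2. The cause of these changes was not tested. Depth is unknown, so the precision of the genes near 1 FPKM cannot be given.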

Other observations

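Among genes under the filter, Itgam, a subunit of an integrin that binds THY1, was at 0.754 FPKM on average in the wild type and 1.24 FPKM in the knockout, with no overlap (exact permutation test, two-sided p = 0.0286; adjusted p in limma with no filter = 0.0576). The promoter windows of RefSeq (GRCm38.p6, 250 bases before to 50 after a start) were searched for ACGTG and GCGTG, the core of the site that hypoxia-inducible factors bind, on both strands. A match was present in 43.8% of 32851 windows. Of the markers 5 had a window, while Lyve1 and Thy1 had none and were not searched. Ccl21a had 0 matches, as had Prox1 in each of its windows, and Mmrn1 had 1, Pdpn 2 and Reln 4. A match describes these letters in this window and is not a site of binding.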
